A study of Mus musculus with 3 samples.

Results

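The clustered protocadherins are cadherin-type adhesion proteins encoded by 3 neighbouring gene families, alpha (Pcdha), beta (Pcdhb) and gamma (Pcdhg). In the table of transcript models deposited for mouse testes, the members were taken as all models whose gene symbol starts with Pcdha, Pcdhb or Pcdhg. This gave 59 models with 59 symbols, of 50081 models and 23135 gene symbols in all. The families held 15 alpha, 22 beta and 22 gamma models, and all 59 lay on the plus strand of chromosome 18 (mm9), from 37089939 to 38001526.

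The series held CAGE libraries, which read capped 5′ ends, from wild-type C57BL/6J testes at 10.5 days post partum (1 library) and from adults (1 library). It also held 1 PAS-Seq library, which reads polyadenylated 3′ ends, from adult wild-type C57BL/6J testes. The series came with 1 table of exon positions, and how the 3 libraries entered it is not given. It has no value per library, so the depth of the libraries is unknown and neither ages nor assays could be compared. The lengths, positions and codes below have no replicates and were not tested, and a model in the table is not a measure of expression.

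Clustered protocadherins are best known from neurons, where combinations of isoforms on the cell surface bind like combinations on other cells and let a cell tell its own processes from those of others. In the alpha and gamma families each promoter stands before its own large variable exon, which encodes the extracellular cadherin repeats and the membrane span. That exon is spliced to constant exons that encode a common cytoplasmic end. The beta genes have no constant exons. Promoter choice depends on DNA methylation and on looping to distant enhancers by the insulator protein CTCF and the cohesin ring. The C-type genes at the end of the alpha and gamma arrays are expressed more uniformly in neurons than the others, most of which are chosen at random.

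The members followed this architecture. All 37 alpha and gamma models had 4 exons, and all 22 beta models had a single exon. The whole region covered 912 kb, in the order alpha, beta, gamma. The 14 models that end at the alpha constant exons finished 77337 bp before the first beta gene, and 140525 bp lay between the last beta gene and the first gamma first exon. All 59 models were RefSeq-derived, meaning that they carried a RefSeq accession. None of the 59 symbols had an additional model with an identifier of the Cufflinks type (CUFF). If the 59 were independent, this would allow a share of up to 5.08% (3 counts of 59). Over all gene symbols 30.7% had such a model. Among symbols without an NR accession whose RefSeq-derived models were all single-exon it was 5.34%.

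**Figure D1:**
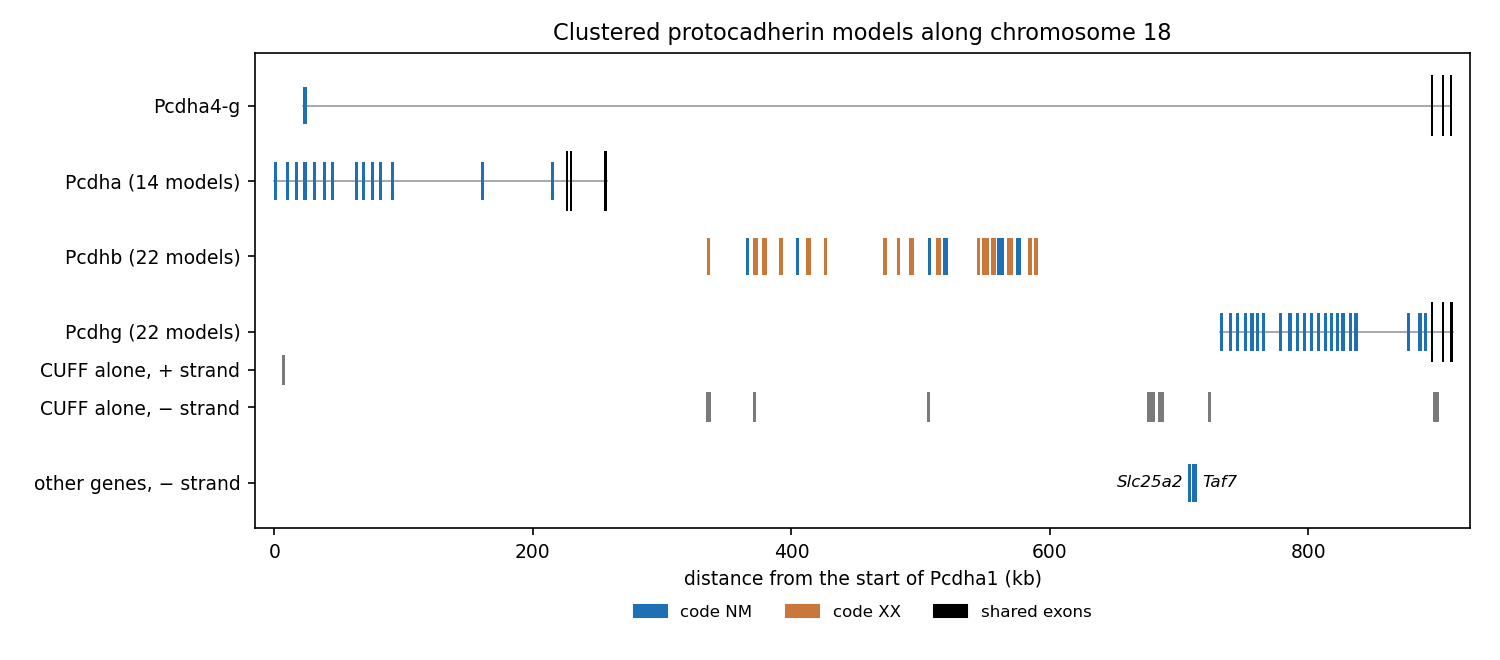
Positions of the 59 clustered protocadherin models and of other models in the region, as distance in kb from the start of Pcdha1. Coloured boxes are first exons (alpha, gamma) or whole genes (beta), by code. Black boxes are shared exons, grey boxes are CUFF models with no gene symbol, and short features are drawn wider than to scale so that they can be seen. The 22 beta genes lie inside the first intron of Pcdha4-g.

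In the alpha family, tandem first exons were joined to 1 set of constant exons. Pcdha1 (start 37089939) came first and Pcdhac2 (start 37303623) last. Exon 2 (chromosome 18, 37315809 to 37315867, 59 nt) and exon 3 (37318919 to 37319007, 89 nt) were identical in 14 of the 15 models. The last exon (37344600 to 37347311, 2712 nt) was identical in 13. Pcdha2 used the same last exon but ended 3 nt further on, at 37347314, with 2715 nt, and the other exception was Pcdha4-g, described below.

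Alpha first exons were of similar length, from 2346 nt in Pcdha5 to 2562 nt in the C-type gene Pcdhac2, with a median of 2394 nt. The other C-type gene, Pcdhac1, had 2436 nt. Pcdha1 had 2388 nt. Outside Pcdha4-g the first exon made up from 45.1% of the spliced model, in Pcdha5, to 47.3%, in Pcdhac2. The rest of each model was sequence it shared with the family. The intron between first exon and exon 2 was 223482 bp in Pcdha1 and 9624 bp in Pcdhac2, with a median of 170591 bp over the 14 models.

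The widest steps between alpha first exons led to the C-type genes. From start to start the median was 7440 bp over 13 neighbouring pairs, with the closest pair, Pcdha8 and Pcdha9, 5413 bp apart. Pcdhac1 started 69906 bp after Pcdha12, and Pcdhac2 started 53833 bp after Pcdhac1. The next widest step, 18543 bp, lay between Pcdha7 and Pcdha8, and the other steps were 5413 to 9372 bp.

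Pcdha4-g linked an alpha first exon to the gamma constant exons. Its first exon began 52 bp after that of Pcdha4, ended at the same base and was 2410 nt long, against 2462 nt in Pcdha4. Its exons 2 and 3 were those of all 22 gamma models (37984675 to 37984733 and 37992919 to 37993007). Its last exon began at the gamma last exon's start in all 22 but was 298 nt long (37999557 to 37999854), and ended 1663 to 1672 bp before the ends of the gamma models. The first intron was 869870 bp and held all 22 beta genes. Of 344703 introns counted over all models in the table, 2 were longer, in models of Accn1 and Immp2l. Because of this model, exon overlap on the same strand put 37 alpha and gamma models in 1 locus. Without it they formed separate loci of 22 gamma and 14 alpha models.

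The gamma family had the same form with its own constant exons. The first exons ran from Pcdhga1 (start 37821599) to Pcdhgc5 (start 37979200). A-type and B-type genes were interspersed in the order ga1, ga2, ga3, gb1, ga4, gb2, ga5, ga6, ga7, gb4, ga8, gb5, ga9, gb6, ga10, gb7, ga11, gb8, ga12, and the C-type genes gc3, gc4 and gc5 followed. Exon 2 (59 nt) and exon 3 (89 nt) were identical in all 22 models. All 22 last exons began at 37999557. Their ends fell at 38001526 in 11 models (1970 nt), at 38001524 in 10 (1968 nt) and at 38001517 in Pcdhga9 (1961 nt). All lay within 9 nt of each other, and with ends within 50 nt counted as 1 the last exon was common to all 22.

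Gamma first exons ran from 2364 nt in Pcdhgb4 to 2961 nt in Pcdhga12, with a median of 2505 nt. Pcdhga1, the first of the array, had 2421 nt. The C-type genes had 2568 nt (Pcdhgc3), 2905 nt (Pcdhgc4) and 2589 nt (Pcdhgc5). The first exon was 52.8% to 58.3% of the spliced model. The median step from start to start was 5230 bp over 21 pairs, with the closest starts, of Pcdhgb8 and Pcdhga12, 3779 bp apart. As in the alpha family, the widest step came before the C-type genes: Pcdhgc3 started 40830 bp after Pcdhga12, and the next widest step was 12728 bp, after Pcdhga5. The first intron was 160655 bp in Pcdhga1 and 2886 bp in Pcdhgc5.

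**Figure D2:**
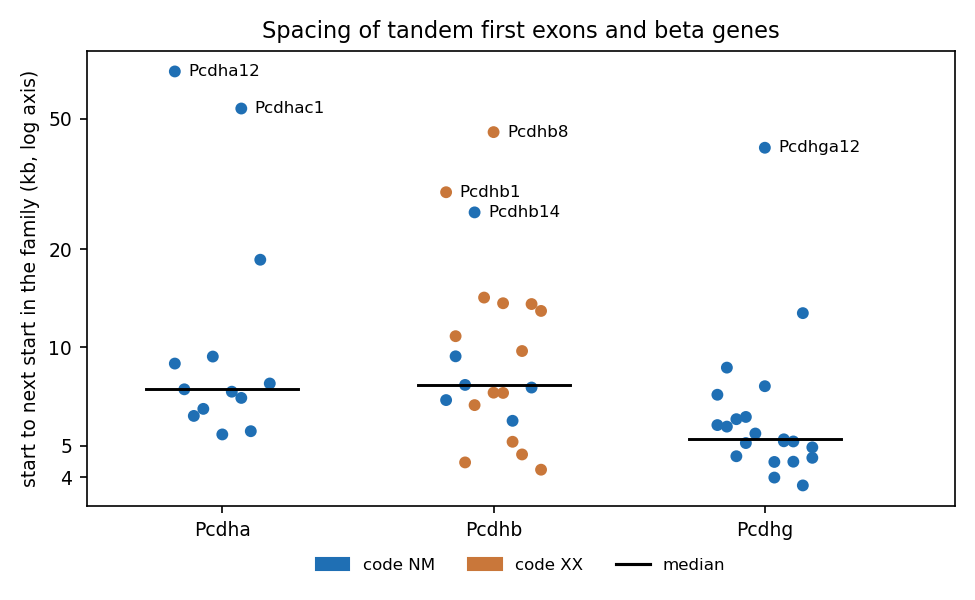
Distance from each start to the next start in the same family, in kb on a log axis, with each point named by the gene before the step where it exceeds 20 kb. Bars are medians (7440 bp in Pcdha, 7674 bp in Pcdhb and 5230 bp in Pcdhg). The widest steps in Pcdha and Pcdhg follow Pcdha12 and Pcdhga12, just before the C-type genes.

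Large first exons of this kind were rare in the table. The median first exon of 23410 multi-exon models with an NM accession was 186 nt. First exons of 2346 nt or more, the shortest in the alpha and gamma families, were found in 94 of these models (0.402%), and 37 of the 94 (39.4%) were clustered protocadherins. The other models belonged to 47 symbols. Of these, 8 were protocadherins outside the clusters (Pcdh7, Pcdh8, Pcdh9, Pcdh10, Pcdh12, Pcdh17, Pcdh18 and Pcdh19), and others were the large cadherins Fat1 to Fat4 and Celsr1 to Celsr3. Most of the 47 were not cadherin genes, among them Irs1, Gnas, Tdrd6 and Tex15. The threshold was set by the members themselves, and the symbols were named after their values were seen.

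First exon lengths were multiples of 3 nt, the length of a codon, in 12 of 15 alpha models (80%), 18 of 22 gamma models (81.8%) and 10 of 22 beta models (45.5%). Over all multi-exon models with an NM accession the share was 33.3%, and over single-exon ones it was 71.9%. Receptor genes were not taken out of the single-exon set, so it is not matched to the beta genes. This comparison was chosen after the lengths were seen. Whether the models concerned begin at the start codon was not tested.

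The pair of short constant exons had the same lengths in both families. A 59 nt exon followed by an 89 nt exon stood at 2 places, 1 in the alpha and 1 in the gamma cluster, and was used by 37 models. Outside the clusters 2 of 18080 other symbols with at least 3 exons had this succession, Ipcef1 and Otof. A 59 nt internal exon on its own was in 3.50% of those symbols. It was also in Pcdh10, Pcdh17 and Pcdh19, 3 of the 12 other protocadherins. An 89 nt internal exon was in 5.14% of those symbols and in 1 of the 12, Pcdh15. No protocadherin outside the clusters had the 59 nt exon followed by the 89 nt exon. These lengths were searched for after the exons had been seen.

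Sharing of 1 last exon by many genes was most extensive here. Counting identical last exons, the 3 largest sets of symbols in the table were the 13 alpha, 11 gamma and 10 gamma models above. The next was the Ugt1a cluster on chromosome 1, glucuronosyltransferase genes also built of tandem first exons. There, 7 of 8 models shared a last exon of 1876 nt (90114702 to 90116577). The eighth, Ugt1a6b, ended early with 872 nt. First exons ran from 2346 to 2961 nt in the alpha and gamma clusters, against 122 nt (Ugt1a6b) to 978 nt (Ugt1a7c) in the Ugt1a cluster.

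Beta genes were single-exon units in a tandem array from Pcdhb1 (start 37424652) to Pcdhb22 (end 37681073). Their lengths varied more than those of the alpha and gamma first exons. The shortest, Pcdhb6, had 2319 nt, the median was 3333.5 nt, and the longest, Pcdhb16, had 5270 nt. Pcdhb1 had 2457 nt and Pcdhb22 had 3067 nt. These lengths take in the whole transcript, coding and untranslated, while the alpha and gamma values above are those of the first exon alone. Over all 2084 single-exon models with an NM accession the median was 951 nt, and 12.4% were as long as Pcdhb6 or longer. Olfactory and vomeronasal receptor genes were not taken out of this set.

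Beta genes were spaced by a median of 7674 bp from start to start over 21 pairs. The widest steps came after Pcdhb8 (45584 bp), Pcdhb1 (29842 bp) and Pcdhb14 (25889 bp). The narrowest, 4222 bp, came after Pcdhb15. Between genes the gap was as small as 1174 bp, from the end of Pcdhb17 to the start of Pcdhb18, with a median of 5355 bp.

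**Figure D3:**
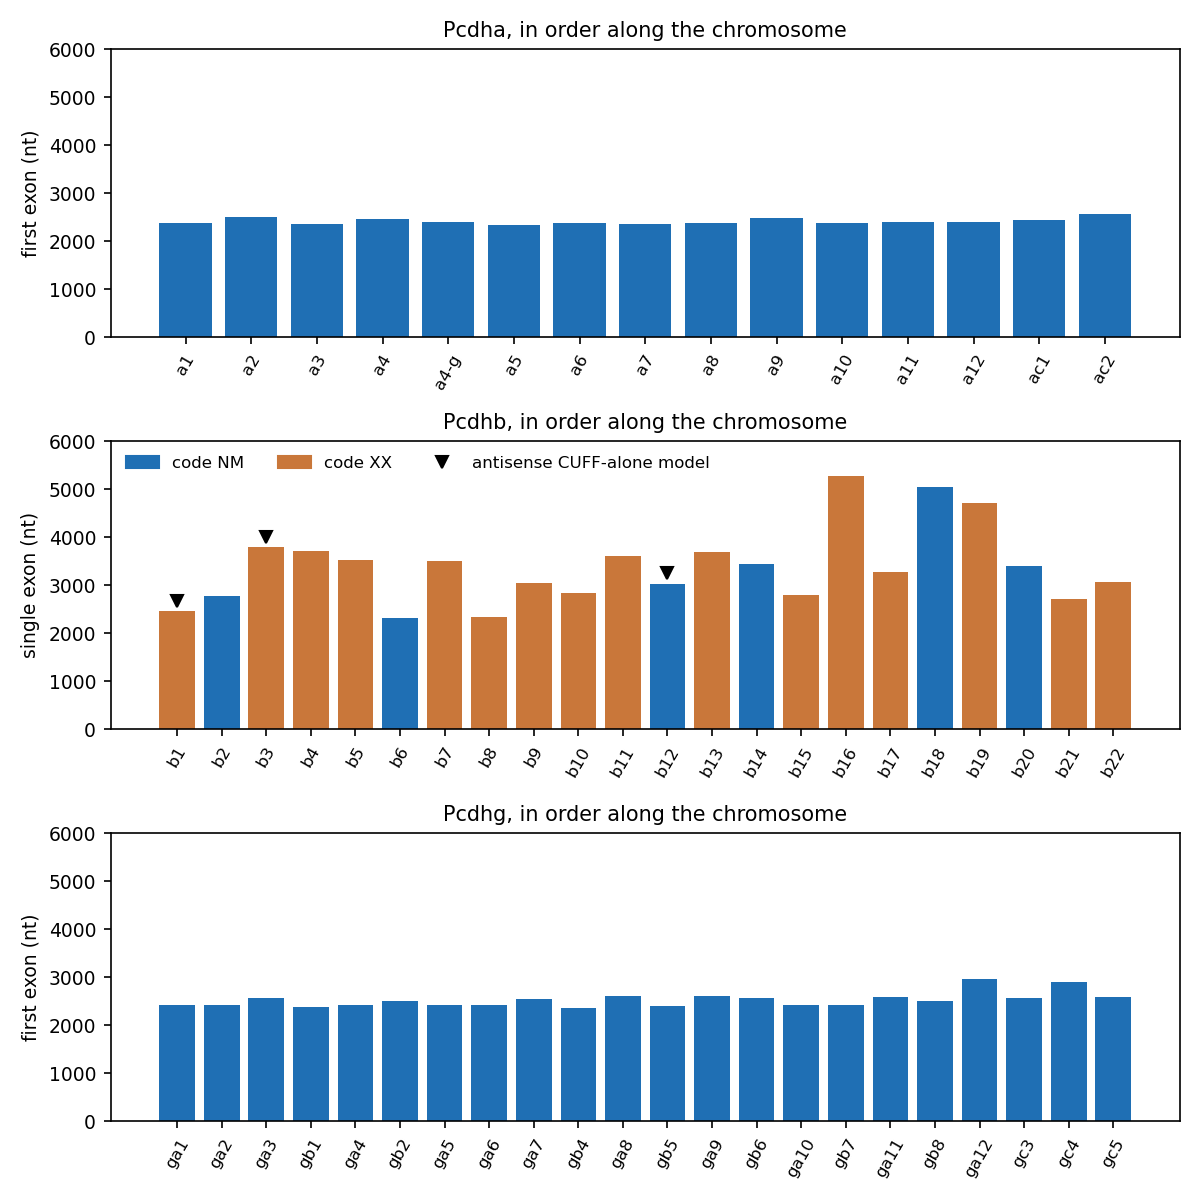
Length in nt of the first exon (Pcdha, Pcdhg) or single exon (Pcdhb) of each model, in order along the chromosome, coloured by code. Triangles mark the 3 beta genes with a CUFF model on the other strand. Alpha and gamma bars lie between 2346 and 2961 nt, and beta bars between 2319 and 5270 nt.

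The table also gives every model a code with 1 of 5 prefixes (NM, NR, XX, PG, PI). No source used here says what they stand for. Of the 59 clustered protocadherins, 43 (72.9%, exact 95% interval 59.7 to 83.6, for counting error only) carried NM and 16 carried XX, against a code other than XX for 60.5% of all gene symbols. This background was 66.0% without microRNA, olfactory and vomeronasal receptor symbols, and 69.0% among the other symbols of chromosome 18. The interval for the members treats all 59 as independent, though 36 of them share 2 ends. The split followed the families. All 15 alpha and all 22 gamma models were coded NM. Of the 22 beta genes, 6 (27.3%, interval 10.7 to 50.2) were coded NM, against 21.1% of the 2443 single-exon symbols without an NR accession. That background includes olfactory and vomeronasal receptor genes. Without receptor and microRNA symbols it was 36.4% of 1249, and the beta share lay between these values.

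The beta genes coded NM were Pcdhb2 (2775 nt), Pcdhb6 (2319 nt), Pcdhb12 (3034 nt), Pcdhb14 (3438 nt), Pcdhb18 (5039 nt) and Pcdhb20 (3397 nt). They were not next to each other: each had beta neighbours coded XX on both sides. In length they overlapped the others, with a median of 3215.5 nt over the 6 genes coded NM and 3388 nt over the 16 coded XX (range 2340 to 5270 nt). The longest beta gene, Pcdhb16, was coded XX, and the second longest, Pcdhb18, was coded NM. How alike the beta sequences are was not measured here. The treatment of reads that fit several genes is not given, and any effect of it on the codes was not tested.

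The alpha and gamma models share their last exons, and whether their codes are independent of each other was not tested. Counting each distinct last exon once (ends within 50 nt taken as 1), the members had 25, of which 9 (36%, interval 18 to 57.5) carried a code other than XX: the alpha end, the gamma end, the end of Pcdha4-g and 6 beta ends. Counted in the same way, all gene symbols gave 64.6% of 28999 last exons. By symbol the interval for the members (59.7 to 83.6) took in the 60.5% of all gene symbols, so no difference is read from it. By last exon the share for the members was below the table's. The 25 ends include those of the 22 single-exon beta genes, so the 2 sets differ in make-up. By symbol, single-exon genes without an NR accession were at 21.1%, or 36.4% without receptor and microRNA symbols.

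Over the whole table, models with a common last exon mostly had the same kind of code. There were 1308 sets of RefSeq-derived multi-exon models with an identical last exon and starts more than 50 nt apart. In 985 of them every model had a code other than XX, in 284 every model had XX, and 39 (2.98%) were mixed. Among the 574 sets with an identical start and ends more than 50 nt apart, 56 (9.76%) were mixed. Pcdh10 was an example of a mixed set with 1 start: the model ending at 45238501 on chromosome 3 was coded NM, and the 3 models with other ends were coded XX. Other protocadherins were not mixed. The Pcdh7 models starting at 58109260 on chromosome 5 ended at 58120704 and 58523479 and were both coded NM. RefSeq-derived Pcdh15 models, with 1 start and several ends, were all coded XX. Of the 22 sets with an identical last exon that joined more than 1 symbol, 3 (13.6%) were mixed, none of them in the protocadherin clusters. Without the members it was 3 of 19 (15.8%). These sets are the ones built like the clusters, and their mixed share was above both shares given before. Use of each first exon and use of the common end cannot be told apart by the alpha and gamma codes.

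**Figure D4:**
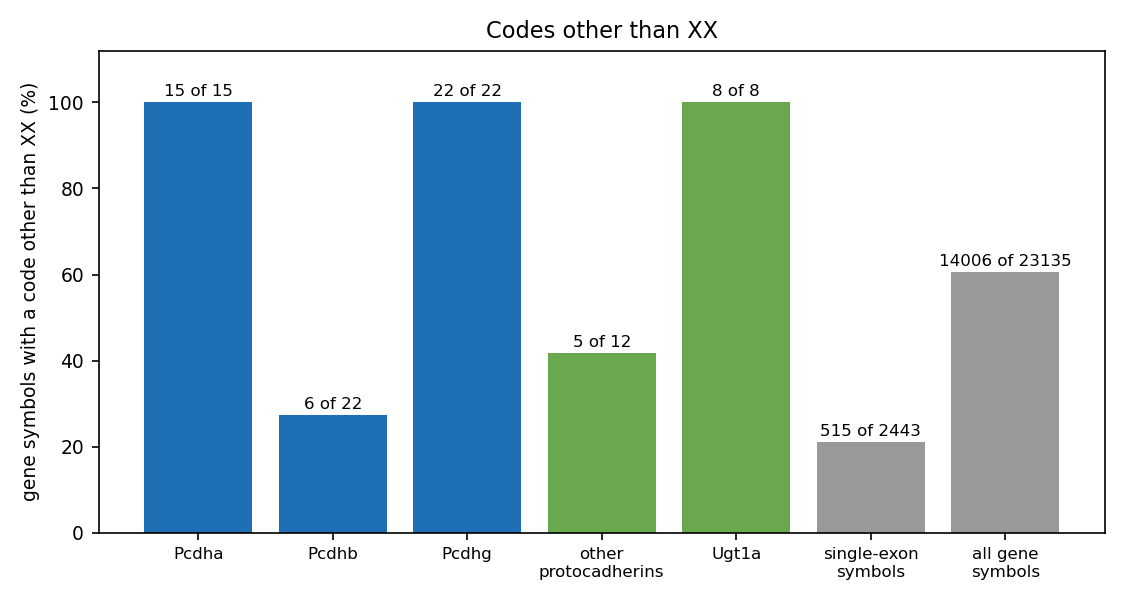
Percent of gene symbols with a code other than XX in each family, in 12 protocadherins outside the clusters, in the Ugt1a cluster, in single-exon symbols without an NR accession and in all gene symbols. Counts stand above the bars. Both families with shared last exons, and Ugt1a, are at 100%, and Pcdhb is at 27.3%. The single-exon bar includes receptor genes, and without receptor and microRNA symbols that share is 36.4% (not drawn). No multi-exon background is drawn.

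Protocadherins outside the clusters, which are separate genes with their own ends, were divided. Of 12, 5 (41.7%) had a code other than XX: Pcdh7, Pcdh9, Pcdh10, Pcdh17 and Pcdh18. Over all gene symbols the share was 60.5%, or 66.0% without receptor and microRNA symbols. With 12 genes the difference was not tested. Pcdh1, Pcdh8, Pcdh11x, Pcdh12, Pcdh15, Pcdh19 and Pcdh20 had XX alone. Pcdh1 and Pcdh12 also lie on chromosome 18, after the gamma cluster (starting at 38356348 and 38426746). All 8 Ugt1a symbols, which form 1 cluster with a common last exon start, were coded NM.

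Models on the other strand lay over 3 beta genes. These were CUFF models with no gene symbol, and all were coded XX. That code says little for this kind of model, since only 2 of the 12088 in the table had another. CUFF.14128.1 (2 exons, 3384 nt) overlapped 2041 nt of Pcdhb1, 83.1% of the gene. CUFF.14142.1 (1 exon, 2047 nt) overlapped 2021 nt of Pcdhb3, and CUFF.14179.1 (1 exon, 2672 nt) overlapped 2169 nt of Pcdhb12. All 3 crossed the start of the beta gene and ended before it, by 1155 bp at Pcdhb1, 26 bp at Pcdhb3 and 503 bp at Pcdhb12. The CUFF model began past the end of Pcdhb1, and inside Pcdhb3 and Pcdhb12, 2020 and 2168 bp after their starts. Pcdhb12 was coded NM, and Pcdhb1 and Pcdhb3 were coded XX.

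No alpha or gamma exon was overlapped in this way, so the count was 3 of 59 members (5.08%, interval 1.06 to 14.1) against 3.6% of all gene symbols. Among beta genes it was 3 of 22 (13.6%, interval 2.91 to 34.9), against 1.64% of single-exon symbols without an NR accession. With 3 genes the interval is wide. The single-exon background was not matched for length and includes receptor genes. Single-exon models with an NM accession had a median of 951 nt, against 3333.5 nt for the beta genes. A longer exon leaves more room for an overlap. Whether the assembly used strand is not given, and without it reads from a beta gene and from a partner on the other strand cannot be told apart.

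Other CUFF models without a symbol stood between and inside the clusters. On the minus strand between Pcdhb22 and Pcdhga1 there were 4 single-exon models, CUFF.14233.1 (5672 nt), CUFF.14236.1 (1463 nt), CUFF.14237.1 (1837 nt) and CUFF.14249.1 (570 nt). In the intron between gamma exons 2 and 3 lay 3 spliced minus-strand models, CUFF.14277.1, CUFF.14277.2 and CUFF.14277.3, of 1298, 879 and 860 nt. On the plus strand CUFF.14056.1, a single exon of 293 nt, lay between the first exons of Pcdha1 and Pcdha2.

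The same interval between beta and gamma genes held the only 2 other gene symbols inside the region, both on the minus strand and coded NM. They were Slc25a2, a mitochondrial amino acid carrier with 1 exon (37797032 to 37798377), and Taf7, a subunit of the general transcription factor TFIID with 2 exons (37800145 to 37803858). Before the alpha cluster the nearest symbol was Vaultrc5, a vault RNA coded XX, 128177 bp from Pcdha1. Beyond it came Zmat2, Hars2 and Hars (histidyl-tRNA synthetases) and Dnd1 (needed for germ cell survival), all coded NM. After the gamma cluster came the formin gene Diap1, the histone deacetylase gene Hdac3, Rell2 and Fchsd1, coded NM, and Arap3, coded XX. Diap1 is transcribed towards the gamma genes, and its RefSeq model ended 2952 bp from the furthest gamma end. A CUFF model over Diap1 reached to 1929 bp from it.

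The genes reported here that act on the clusters or with their proteins almost all had a code other than XX. Of 18 genes known to act on protocadherin promoters or with factors that do, 17 (94.4%) had such a code, beside 60.5% of all symbols. They were Ctcf and its germ-cell paralog Ctcfl, the cohesin genes Rad21, Rad21l, Smc1a, Smc3, Stag1 and Stag2, the cohesin loader and release genes Nipbl, Wapal, Pds5a and Pds5b, the DNA methyltransferases Dnmt1 and Dnmt3b, the silencing factors Smchd1 and Setdb1, and the repressor Rest. The methyltransferase Dnmt3a had 2 models, both coded XX. The 11 genes for protein partners reported here each had a code other than XX. They were the protease Adam10, which cuts protocadherins, Psen2, the kinases Ptk2, Ptk2b and Ret, and the actin regulators Cyfip1, Cyfip2, Nckap1, Abi1, Abi2 and Wasf1. Most of these genes act in many cell types, and Ctcfl is a germ-cell gene. The counts are therefore no measure of protocadherin activity.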

How the data were processed

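Per the labels, total RNA of wild-type C57BL/6J testes was used for CAGE (10.5 days post partum and adult) and PAS-Seq (adult, read length 100 nt). The submitters' processing notes name TopHat2 2.0.4 and mm9. No source used here says how the authors assembled, coded and filtered the deposited models. The deposited table has 12 columns and no header; its positions, exon numbers and exon lengths were used as deposited, and no model was filtered out.

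Exons were read in transcription order, with positions counted from 1. Last exons were called shared where both ends were identical. A symbol was counted by its code where any of its models had one other than XX. Intervals are exact Clopper-Pearson (95%) and treat the counted members as independent, though 36 of the models share 2 ends. Exon reading was tested on simulated models. Python 3.11.15, pandas 2.3.3 and SciPy 1.17.1 were used. Of 59 symbols, 58 matched the GRCm38.p6 gene tables, used for names only.

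Members and gene lists were chosen with earlier results of these data known. Genes were named by position, length, code and exon structure (array ends, extremes, C-type genes, all beta genes coded NM), with the list members (1 is not reported here) and the 5 nearest symbols on each side. With 1 library per group and no value per library, no test was possible between samples.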

Additional observations from a re-analysis of the deposited data

How the results depend on the processing

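Depth is unknown, and no value rests on replicates. No paired analysis was possible because each group has 1 library and the table has no column per library. The number of members with a code other than XX was 43 with models counted or with RefSeq-derived models only, and 9 with distinct last exons counted, since 36 of the models share 2 ends. The share of all gene symbols with such a code, 60.5%, was 66.0% without receptor and microRNA symbols, 21.1% over single-exon symbols without an NR accession, 69.0% on chromosome 18 without the members and 64.6% by distinct last exons. Gamma models sharing a last exon numbered 22 with ends within 50 nt, against 11 with identical ends. From end to start, median spacing was 4970 bp in Pcdha, 5355 bp in Pcdhb and 2809 bp in Pcdhg. Without C-type genes, start-to-start medians were 7316 bp in Pcdha and 5194 bp in Pcdhg. Without Pcdha4-g the median alpha first exon was 2391 nt. The other alternatives left the counts of shared alpha last exons within 13 to 14 and of single-exon beta genes at 22. Alternatives with distinct last exons, without Pcdha4-g and without C-type genes were chosen after seeing the data.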
